A study of Bos taurus with 3 samples.

Results

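DLK2 cells that carried transcripts of the chemokine gene CCL20 were examined in the rumen epithelium of 3 lactating adult Holstein dairy cows. A cell was counted as a member if it held at least 1 UMI (unique molecular identifier, which marks 1 captured transcript) of DLK2 and at least 2 UMIs of CCL20. The members were thus chosen by their own counts of DLK2 and CCL20. The rule found 202 cells, which were 7 cells of cow 1, 193 of cow 2 and 2 of cow 3, among 7834 DLK2 cells and 20728 cells in all. They were set against 7465 DLK2 cells with 0 UMIs of CCL20, of which 1409 came from cow 1, 3460 from cow 2 and 2596 from cow 3. The 167 DLK2 cells with exactly 1 UMI of CCL20 entered neither group.

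The cells came from the ventral sac of the rumen, were freed with enzymes and were read with droplet chemistry, 1 library per cow. There was 1 condition and no treatment, so both groups of a cow share the animal, the library and the dissociation, and they differ only in the transcripts that were captured. The study uses DLK2 as the marker of its granule cells. A deposited cell type annotation was not used here, so the cells are called by the rule alone. A cell with 0 UMIs of a gene may still express it, and a UMI can come from free RNA in the droplet.

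CCL20 is a secreted chemokine that attracts lymphocytes and immature dendritic cells through the receptor CCR6, and epithelia release it at barrier surfaces. Its gene is a known target of the transcription factor NF-kB in epithelial cells exposed to cytokines such as TNF, IL-1 and IL-17 or to bacterial products. GRO1, CXCL2 and CXCL3 encode related chemokines that attract neutrophils. DLK2 encodes a membrane protein with EGF-like repeats that is related to the Notch ligands. TNFRSF6B encodes a soluble decoy receptor of TNF family ligands, and SLC4A7 encodes a sodium bicarbonate cotransporter. GRO1, TNFRSF6B and SLC4A7 were named as markers of the cells with earlier results of these data known, so their values below are a description.

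The members were nearly a population of 1 cow. The share of DLK2 cells with at least 2 UMIs of CCL20 was 0.492% in cow 1 (exact 95% interval 0.198% to 1.01%), 5.07% in cow 2 (4.39% to 5.81%) and 0.0769% in cow 3 (0.00931% to 0.277%). Averaged over the 3 cows it came to 1.88% ± 2.77 (SD, n = 3). The intervals cover counting error only, and the interval of cow 2 lay apart from those of the others. Cells with no UMI of DLK2 gave shares of 0.411%, 6.21% and 0.122% in cows 1 to 3, so CCL20 was found most often in cow 2 on either side of the DLK2 rule. After each cell was thinned to 5000 UMIs, the shares were 0.530%, 3.33% and 0.0651% with DLK2 and 0.296%, 3.88% and 0.0907% without it. No cell type that should lack CCL20 was defined here, so the share that free RNA gives was not measured.

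**Figure D1:**
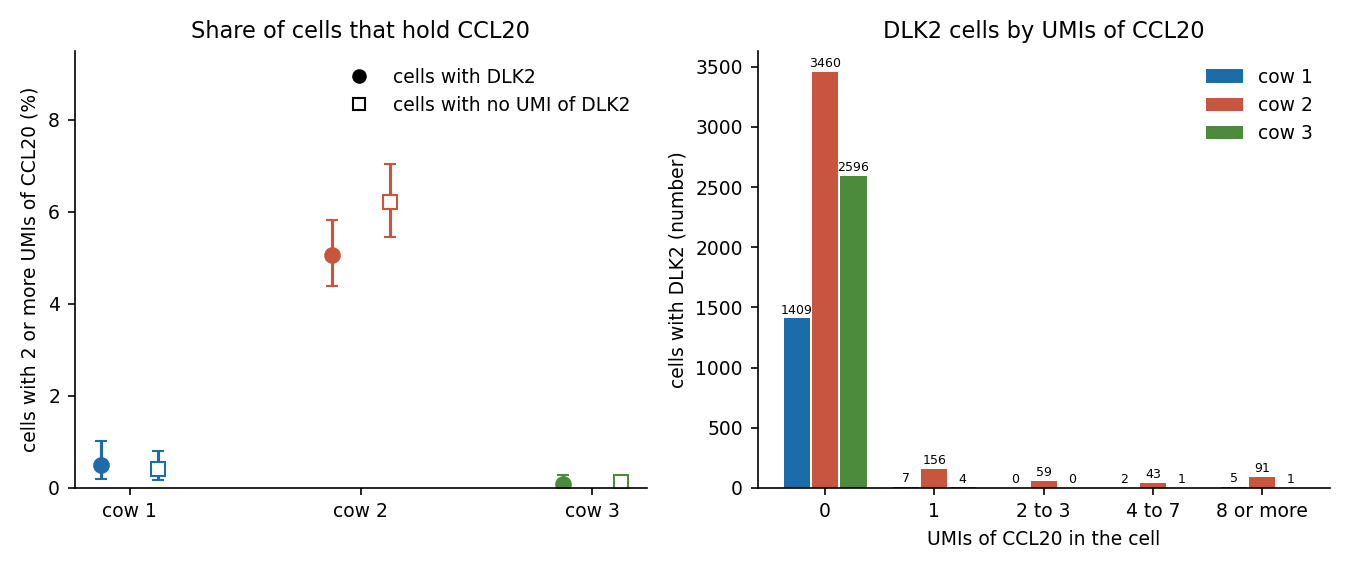
Left, percent of cells with at least 2 UMIs of CCL20 in each cow, for cells with DLK2 (filled circles) and with no UMI of DLK2 (open squares), with exact 95% binomial intervals. Right, number of DLK2 cells of each cow by their UMIs of CCL20. Cow 2 stands at 5.07% and 6.21%, and it holds 193 of the 202 members.

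The members held 3887 of the 7893 UMIs of CCL20 in the series, or 49.2%. A member held a median of 10 UMIs of CCL20 in cow 1, 7 in cow 2 and 26.5 in cow 3, with a highest value of 261 in 1 cell of cow 2. Just inside the rule stood 27 members with exactly 2 UMIs, each of them from cow 2, and just outside it the 167 DLK2 cells with 1 UMI, of which 156 were from cow 2. Of DLK2 itself, 86 members held 1 UMI and 116 held 2 or more. These values follow from the rule and were not tested.

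Depth set how much each cow could show. The 3 sums of members held 101110, 3064966 and 23682 UMIs, so 1 UMI was worth 9.89 CPM (UMIs of a gene per 1000000 UMIs of the sum) in cow 1, 0.326 CPM in cow 2 and 42.2 CPM in cow 3. A count of 0 allowed a level of up to 29.7 CPM in cow 1, 0.979 CPM in cow 2 and 127 CPM in cow 3. The members were also deeper than the DLK2 cells with no CCL20, with medians of 12095, 14626 and 11841 UMIs per cell in cows 1 to 3 against 9402, 10694.5 and 9157. Over all cells the libraries held 3369, 7401 and 9958 cells. 35 barcodes without their suffix occurred in 2 cows, and none of these belonged to a member.

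What else the members carried was asked by summing UMIs per cow and group and testing 9745 genes with the quasi-likelihood test of edgeR, with the cow as a block. A gene was called at a Benjamini-Hochberg adjusted p below 0.05 and a log2 fold change above 0.25 in size. The members had 101 genes called higher, or 1.04% of the genes tested, and 34 called lower, or 0.349%. Chemokines that attract neutrophils (CXCL2, GRO1 and CXCL3), the inhibitor NFKBIA, the receptor TNFRSF12A, the calprotectin genes S100A8 and S100A9 and the complement gene CFB stood among those higher. UACA, IGFBP5 and TOP2A were among those lower. The median log2 fold change over all genes tested was -0.12.

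The counts depended on the model, with 21 genes higher and none lower without the block, 23 and 2 by DESeq2, 57 and 8 with comparison cells matched on depth and 31 and 1 after thinning to 5000 UMIs. Of the 101 genes higher, 43 were higher in each of the 3 cows, 49 had 0 UMIs in the 2 members of cow 3 and 12 had 0 UMIs in the 7 members of cow 1. The values of all 3 cows also chose these genes, and 1 UMI in the members of cow 3 is 42.2 CPM. The 43 is thus a description, and the share of all genes tested that were higher in each cow is not given. Of the 34 lower, 31 were lower in each cow, but 26 had 0 UMIs in the members of cow 3, and BUB1B and AURKB, named after their values were seen, had 0 in any member. With 4 sums left in the edgeR fit, 5 genes higher were called without cow 1 and none without cow 2 or without cow 3 (49 and 387 at an unadjusted p below 0.05). The log2 fold change stayed above 0 for each of the 101 without cow 1 and without cow 3, with medians of 1.54 and 1.52. Without cow 2 it did so for 88 of the 93 still tested, with a median of 1.49. Over all genes tested the medians were -0.06 without cow 1, -0.09 without cow 3 and -0.65 without cow 2. Each cow had helped choose these genes and cow 2 held most UMIs of the members, so the signs follow in part from the choice. In cow 2 alone, a description with no test, 94 of 3364 genes at 20 CPM or more were at least 2-fold higher in the members (2.79%) and 21 at least 2-fold lower (0.624%). Of those 94 genes, 76.6% were higher in cow 1 as well, against 44.4% of the 3364, and 67.0% in cow 3, against 44.0%.

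Of 6 tested chemokines besides CCL20, 4 were called higher (66.7%, against 1.04% of all genes tested) and none lower, and their median log2 fold change was 2.48. GRO1, 1 of the 4, was a marker already. CXCL2 stood at 712, 561 and 211 CPM in the members of cows 1 to 3, against 4.60, 21.9 and 2.55 CPM in DLK2 cells with no CCL20. Its groups did not overlap, and its log2 fold change was 5.54 ± 0.36 (SE worked back from the test statistic, edgeR adjusted p = 3.60e-50). In cow 3 it rests on 5 UMIs, 3 of them from 1 cell. GRO1 stood at 89.0, 246 and 169 CPM against 2.50, 17.1 and 1.21 CPM, with a log2 fold change of 4.15 ± 0.36. Its 4 UMIs in cow 3 came from 1 cell and its 9 in cow 1 from 2 cells. CXCL3 stood at 564, 643 and 887 CPM against 38.4, 147 and 27.1 CPM, with a log2 fold change of 2.99 ± 0.33, and 1 cell held 90.5% of its UMIs in the members of cow 3. These 3 chemokine genes are neighbours in the RefSeq annotation of assembly ARS-UCD2.0, and reads of such close relatives can be split between them, so the value of each is less certain than that of the group.

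CXCL16, a chemokine that is also made as a membrane protein, was called higher on far fewer UMIs, at 5, 53 and 1 UMIs in the members and a log2 fold change of 1.97 ± 0.35. CX3CL1, the other chemokine with a membrane form, had 98.9, 63.0 and 42.2 CPM in the members and 53.8, 52.2 and 37.2 CPM without CCL20, a difference of 0.30 ± 0.30 that did not pass (adjusted p = 0.845). CXCL8 was not tested for its low counts. It had 25 UMIs in the members of cow 2 and 0 in those of cows 1 and 3, and it was named after its values were seen. The receptor of CCL20, CCR6, had 0 UMIs in any member, and 12 of the 16 chemokine receptors in the matrix were likewise at 0. Their list summed to 19.8, 6.53 and 0 CPM in the members against 5.98, 7.39 and 4.93 CPM, so it was low in both groups. Neither of the 2 chemokine receptors tested was called, which is no result with 1.04% of all genes called higher.

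**Figure D2:**
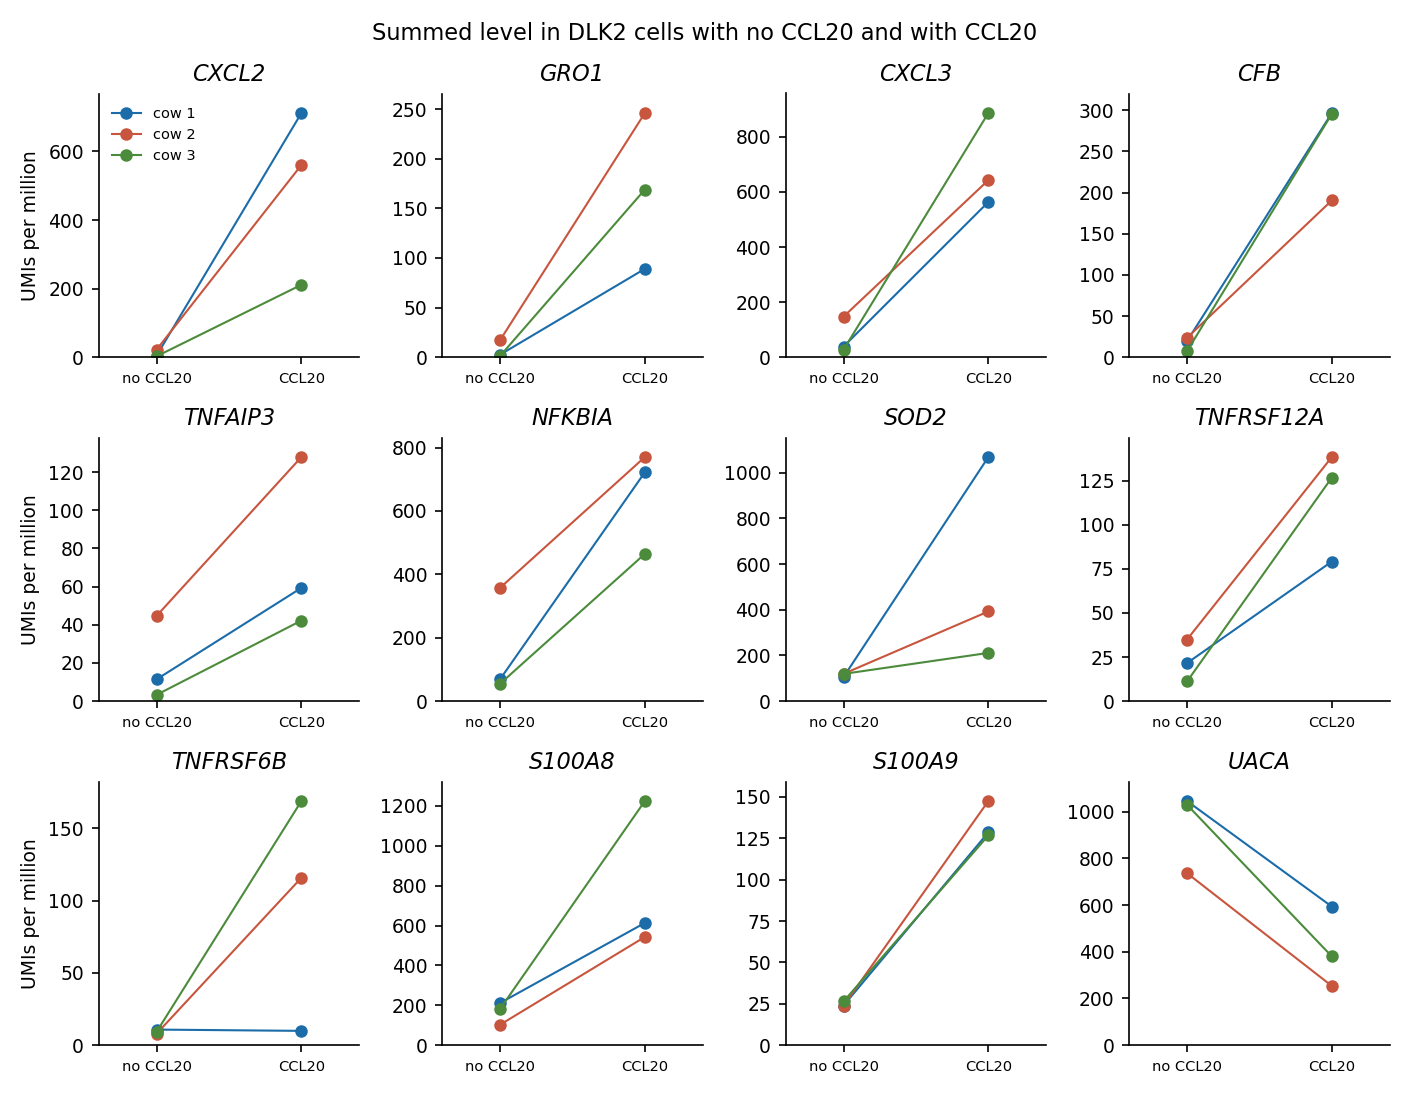
Summed level in CPM in the sum of DLK2 cells with no CCL20 and in the sum of DLK2 cells with CCL20, 1 line per cow, each panel with its own linear axis from 0. CXCL2 lies at 211 to 712 in the sums with CCL20 and at 2.55 to 21.9 in the others. UACA is lower with CCL20 in each cow.

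None of the 7 cytokine genes tested was called, with a median log2 fold change of 0.04. At 1.04% of all genes called higher, a list of this size would seldom hold a call, so the count is no result about cytokines. IL1RN, the antagonist of the IL-1 receptor, had 39.6, 70.5 and 0 CPM in the members and 32.3, 44.8 and 60.3 CPM without CCL20. TNF was too low to be tested. It had 70 UMIs in the members of cow 2, or 22.8 CPM against 1.43 CPM without CCL20, and 0 UMIs in the members of cows 1 and 3. TNF was named after its values were seen.

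Subunits and inhibitors of NF-kB were higher in part. Of 14 tested, 4 were called higher (28.6%, against 1.04% of all genes tested) and none lower, with a median of 0.75. NFKBIA, the inhibitor that is itself induced by NF-kB and ends its activity, stood at 722, 770.0 and 464 CPM in the members against 69.1, 357 and 55.0 CPM. It was higher in each cow, by a log2 fold change of 1.98 ± 0.34 (adjusted p = 2.24e-06, edgeR), and its level without CCL20 in cow 2 was above those of the other cows. RELB, NFKB2 and NFKB1, all subunits, were called with log2 fold changes of 1.86 ± 0.33, 1.23 ± 0.31 and 1.18 ± 0.30. RELB had 2, 85 and 0 UMIs in the members of cows 1 to 3, and NFKB2 had 5, 105 and 0. NFKB1 had 5, 148 and 2 UMIs, and the 2 in cow 3 came from 1 cell. NFKBIZ, an atypical inhibitor, had 69.2, 276 and 211 CPM against 58.9, 137 and 27.3 CPM and did not pass (adjusted p = 0.178, edgeR).

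Of 27 tested target genes of NF-kB, 9 were called higher (33.3%, against 1.04% of all genes tested) and none lower, with a median of 0.83. Of these 9, 5 passed the filter on low counts only with the UMIs of the members, so the count is no support for the list. SOD2, the mitochondrial superoxide dismutase, stood at 1068, 392 and 211 CPM in the members against 106, 119.6 and 119 CPM, a log2 fold change of 2.02 ± 0.31. TNFAIP3, which encodes the A20 enzyme that restrains NF-kB signalling, stood at 59.3, 128 and 42.2 CPM against 11.4, 44.7 and 3.33 CPM, a log2 fold change of 1.63 ± 0.32. ZC3H12A, an RNase that degrades cytokine transcripts, was called at 1.34 ± 0.30. For each of these 3 genes every cow was higher with CCL20. The value of cow 3, however, rests on 1 UMI for TNFAIP3 and ZC3H12A and on 5 for SOD2. In the members of cow 1, 1 cell held 47.2% of the UMIs of SOD2.

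The other 6 target genes called were sparser. TNFAIP2 had 3, 21 and 3 UMIs in the members, against 0.131, 0.544 and 0.274 CPM without CCL20, and a log2 fold change of 4.51 ± 0.87. TNFAIP2, PLAU, C3, MAP3K8 and CD40 passed the filter on low counts only with the UMIs of the members, as did 8 of the 27 targets tested and 14 of the 101 genes higher. PLAU, the urokinase, and C3, the central complement component, had 10 UMIs each in the members of cow 1 and 0 in cow 3, with log2 fold changes of 3.38 ± 0.35 and 3.64 ± 0.55. SDC4 was called at 1.81 ± 0.34. MAP3K8 and CD40 had UMIs in the members of cow 2 alone, 152 and 52 of them, so their calls rest on that cow. IRF1 was among the most abundant targets and did not pass, at 39.6, 105 and 0 CPM against 24.1, 75.0 and 8.03 CPM.

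Receptors of the TNF family included 4 called higher of 9 tested (44.4%, against 1.04% of all genes tested), with a median of 0.63. TNFRSF6B, 1 of the 4, was a marker already. TNFRSF6B stood at 9.89, 116 and 169 CPM in the members against 10.8, 7.96 and 9.24 CPM. It was higher in cows 2 and 3 and not in cow 1, where 1 UMI was found, and the 4 UMIs of cow 3 came from 1 cell. Its log2 fold change was 3.35 ± 0.32. TNFRSF12A, the receptor of the ligand TWEAK, was higher in each cow, at 79.1, 138 and 127 CPM against 21.6, 34.9 and 11.2 CPM. Its log2 fold change was 1.96 ± 0.31 (adjusted p = 1.50e-07, edgeR), and its 3 UMIs in cow 3 came from 1 cell. The death receptor FAS and TNFRSF21 were called at 1.58 ± 0.33 and 1.67 ± 0.34, but FAS had 0 UMIs in the members of cow 3 and TNFRSF21 had 0 in cow 1 and a log2 fold change of -0.00730 without cow 2. The abundant receptor TNFRSF1A had 119, 51.2 and 296 CPM against 51.7, 40.9 and 46.8 CPM and did not pass (adjusted p = 0.436, edgeR).

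Ligands of these receptors were scarce in both groups, summing to 0, 9.14 and 0 CPM in the members against 5.65, 5.91 and 7.24 CPM. 8 of the 14 TNF ligand genes in the matrix, FASLG among them, had 0 UMIs in any member. The share of all genes at 0 in the members is not given, so these zeros are no result about the members. TNFSF15, which TNFRSF6B is known to bind, had 10 UMIs in the members of cow 2 and 0 in the other cows. None of the 3 ligands tested was called, with a median of 0.54, and with 1.04% of all genes called higher this count is no result.

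In the list of the IL-17 pathway, 2 of 7 tested genes were called higher (28.6%, against 1.04% of all genes tested), with a median of 0.43. They are S100A8 and S100A9, which encode the subunits of calprotectin, an antimicrobial protein that binds zinc and manganese. S100A8 stood at 613, 543 and 1225 CPM in the members against 211, 102 and 182 CPM, with a log2 fold change of 1.91 ± 0.31, and its 29 UMIs in the members of cow 3 came from 1 cell. S100A9 stood at 129, 147 and 127 CPM against 23.9, 23.9 and 26.4 CPM, with a log2 fold change of 2.40 ± 0.30 (adjusted p = 2.09e-12, edgeR). The S100A9 values of the members rest on 13, 452 and 3 UMIs, and 8 of the 13 came from 1 cell, so their closeness shows little. Their neighbour S100A12 had 3679, 5453 and 5954 CPM against 1746, 1531 and 1637 CPM, without overlap, yet it did not pass (1.22 ± 0.42, adjusted p = 0.145, edgeR). The receptor subunit IL17RA did not pass, at 98.9, 48.0 and 0 CPM against 44.9, 39.8 and 38.2 CPM.

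CFB and the serum amyloid genes were also called higher. CFB, a factor of the alternative complement pathway, stood at 297, 191 and 296 CPM in the members against 19.5, 23.5 and 7.28 CPM. It was higher in each cow, by a log2 fold change of 3.36 ± 0.30, and in cow 3 it rests on 7 UMIs, 5 of them from 1 cell. The serum amyloid genes M-SAA3 and SAA3 stood at 2700.0, 632 and 0 CPM and at 2354, 290.1 and 0 CPM in the members, and at most 28.2 CPM in DLK2 cells with no CCL20, with log2 fold changes of 5.67 and 5.94. They are near copies, so reads may be split between them. Their level in cow 1 came mainly from 1 cell, which held 74.7% of the UMIs of M-SAA3 and 64.7% of those of SAA3, and in cow 2 20.7% and 20.2% of the members had a UMI of them, against 2.54% and 1.42% of DLK2 cells with no CCL20.

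Among genes at a mean of 20 CPM or more that were higher in each cow, CLDN1, PPAN and BTG3 were the remaining ones of the 15 largest increases. CLDN1, which builds tight junctions, stood at 89.0, 63.0 and 42.2 CPM against 37.5, 17.1 and 2.04 CPM, a log2 fold change of 1.70 ± 0.30. BTG3, which restrains cell division, stood at 109, 89.7 and 253 CPM against 32.3, 33.2 and 28.3 CPM, a log2 fold change of 1.54 ± 0.30. PPAN, needed to make ribosomes, was called at 1.55 ± 0.31. Each of the 3 was higher in every cow, but their values in cow 3 rest on few UMIs. CLDN1 had 1 UMI there, PPAN had 2 in 1 cell and BTG3 had 6, of which 1 cell held 5.

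SLC4A7 had 129, 52.2 and 0 CPM in the members against 26.4, 19.9 and 14.4 CPM. It was higher in cows 1 and 2, and in cow 3 its 0 of 23682 UMIs allows a level above that of the comparison cells. The log2 fold change was 1.48 ± 0.30, and the other bicarbonate transporters tested, SLC4A2 and SLC4A9, were not called. Among the genes of volatile fatty acid transport and ketogenesis, 0 of 11 tested were called by edgeR, with a median of -0.30. Over all genes 1.04% were called higher and 0.349% lower, so a list of this size would seldom hold a call and the 0 is no result. SLC16A1, a monocarboxylate transporter, had 277, 228 and 507 CPM against 378, 235 and 354 CPM, so the groups overlapped.

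Fewer genes were lower. UACA, a coiled-coil protein tied to apoptosis, stood at 593, 254 and 380.0 CPM in the members against 1045, 736 and 1029 CPM, a log2 fold change of -1.49 ± 0.36 (adjusted p = 0.00371, edgeR). IGFBP5, which binds insulin-like growth factors, stood at 19.8, 78.0 and 42.2 CPM against 183, 131 and 166 CPM, lower in each cow (adjusted p = 0.0222, edgeR). ENSBTAG00000051082, a gene with no symbol, stood at 148, 86.8 and 42.2 CPM against 432, 208 and 229 CPM, a log2 fold change of -1.51 ± 0.33. The groups of these 3 genes did not overlap, but the genes were picked as lower in each cow. In the members of cow 3, IGFBP5 and ENSBTAG00000051082 rest on 1 UMI each and UACA on 9. IGFBP5 in cow 1 rests on 2 UMIs of 1 cell. The share of all genes tested without overlap is not given.

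TOP2A, the topoisomerase of dividing cells, was the 1 gene of the 15 in the cell cycle list called, and 0.349% of all genes tested were called lower. It had 0, 2.28 and 0 CPM in the members against 37.9, 8.92 and 91.7 CPM. Its 7 UMIs in the members were all from cow 2. A count of 0 allows up to 29.7 CPM in cow 1 and 127 CPM in cow 3, so cow 3 could not show a decrease. BUB1B and AURKB, mitotic kinases outside that list, were called lower too, as given above. PCNA did not pass, with 89.0, 54.2 and 42.2 CPM against 34.1, 42.9 and 83.4 CPM, and the median of the cell cycle list was 0.20. Of the other genes with the largest decreases, GPNMB had 69.2, 10.8 and 0 CPM against 163, 34.5 and 2.39 CPM. STARD10, a lipid carrier, COL27A1, a fibrillar collagen, SELENOP, which carries selenium, DEPP1 and the clock repressor NR1D1 had log2 fold changes between -1.40 and -1.17. COL27A1, SELENOP, DEPP1 and NR1D1 had 0 UMIs in the members of cow 3, which its depth would allow at their comparison levels.

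None of the 16 basal keratinocyte genes was called, with a median of -0.35. That count says little, since only 1.04% of all genes tested were called higher and 0.349% lower. KRT5, a basal keratin, had 3185, 3998 and 7854 CPM in the members against 3558, 3729 and 6794 CPM, and KRT14 had 2186, 2887 and 4223 CPM against 1999, 2792 and 4601 CPM. For both the cows differed more than the groups. Of 7 tested genes of terminal differentiation, OVOL1 and PRDM1 were called higher, or 28.6% against 1.04% of all genes tested, with a median of 1.02 for the list. PRDM1, a repressor that acts in the upper layers of epidermis, had 9.89, 53.2 and 42.2 CPM against 12.5, 22.1 and 4.07 CPM, so cow 1 was not higher. OVOL1 had UMIs in the members of cow 2 only. IVL and LOR, which encode cornified envelope proteins, had 0 UMIs in any member.

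Of 21 tested immediate-early genes, FOSL1 alone was called higher, at 3, 32 and 1 UMIs in the members. That is 4.76% of the list against 1.04% of all genes tested, and the list median was 0.02. FOSL1 passed the filter on low counts only with the UMIs of the members, so the count is no support for the list. Its 3 UMIs in the members of cow 1 came from 1 cell. JUN had 2809, 4665 and 1225 CPM against 2748, 4321 and 942 CPM, and EGR1 had 643, 1043 and 84.5 CPM against 516, 852 and 81.5 CPM. The early response gene IER3 had 2146, 1434 and 1225 CPM against 546, 746 and 407 CPM, without overlap, and fell just short of the call (1.17 ± 0.35, adjusted p = 0.0617, edgeR). None of 12 heat shock genes (median 0.14), 12 genes of MAP kinase feedback (-0.22) or 10 Notch genes (-0.24) was called. With 1.04% of all genes called higher and 0.349% lower, lists of these sizes would seldom hold a call, so these counts are no result. Of 7 tested genes of EGF receptor signalling, AREG, a ligand of that receptor, was called higher with 79.1, 41.8 and 0 CPM against 39.7, 16.3 and 3.52 CPM (adjusted p = 0.00722, edgeR). This is 14.3% of the list against 1.04% of all genes tested, and the 8 UMIs of AREG in cow 1 came from 1 cell.

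Levels of some genes were graded with CCL20 within the DLK2 cells of cow 2. The sums in cow 2 held 3460 cells with 0 UMIs of CCL20, 156 with 1, 59 with 2 to 3, 43 with 4 to 7 and 91 with 8 or more. GRO1 was at 17.1, 33.5, 82.3, 161 and 381 CPM in that order, and CXCL2 was at 21.9, 34.5, 109, 360.4 and 919 CPM. TNFRSF6B was at 7.96, 12.9, 20.3, 90.1 and 185 CPM, and NFKBIA at 357, 439, 632, 736 and 869 CPM. SLC4A7 was at 19.9, 24.9, 32.1, 63.9 and 59.9 CPM and CXCL16 at 5.04, 8.62, 9.62, 27.8 and 17.8 CPM, so neither rose at every step. UACA was at 736, 754, 306, 334 and 189 CPM, so it was not lower with 1 UMI of CCL20 than with none. KRT5 was at 3729, 3748, 4189, 3615 and 4034 CPM, with no such order. The median depth of these cells also rose, from 10694.5 UMIs with 0 UMIs of CCL20 to 15656 with 8 or more. The part of depth in these levels was not tested within the steps. In cows 1 and 3 the filled steps above 0 UMIs held 1 to 7 cells each and no cell had 2 to 3 UMIs, so the order there rests on few UMIs. In cow 1 CXCL2 was at 4.60, 154, 218 and 993 CPM and NFKBIA at 69.1, 83.2, 573 and 806 CPM with 0, 1, 4 to 7 and 8 or more UMIs of CCL20, both rising, while TNFRSF6B was at 10.8, 119, 27.3 and 0 CPM and GRO1 at 2.50, 0, 109 and 77.5 CPM, not in order. In cow 3 UACA was at 1029, 724, 657 and 153 CPM, falling, while TNFRSF6B was at 9.24, 163, 376 and 0 CPM and GRO1 at 1.21, 0, 376 and 0 CPM. Of 18 genes called higher that were read over these steps, the cells of cow 2 had 12 that rose at every filled step, those of cow 1 had 5 and those of cow 3 had 1. Of 10 called lower, 2 fell at every filled step in cow 2, none did in cow 1 and 2 did in cow 3. These genes were chosen by their difference with CCL20 in the same cells, so part of the order was built in. The share of all genes with such an order is not given, so these counts are a description.

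**Figure D3:**
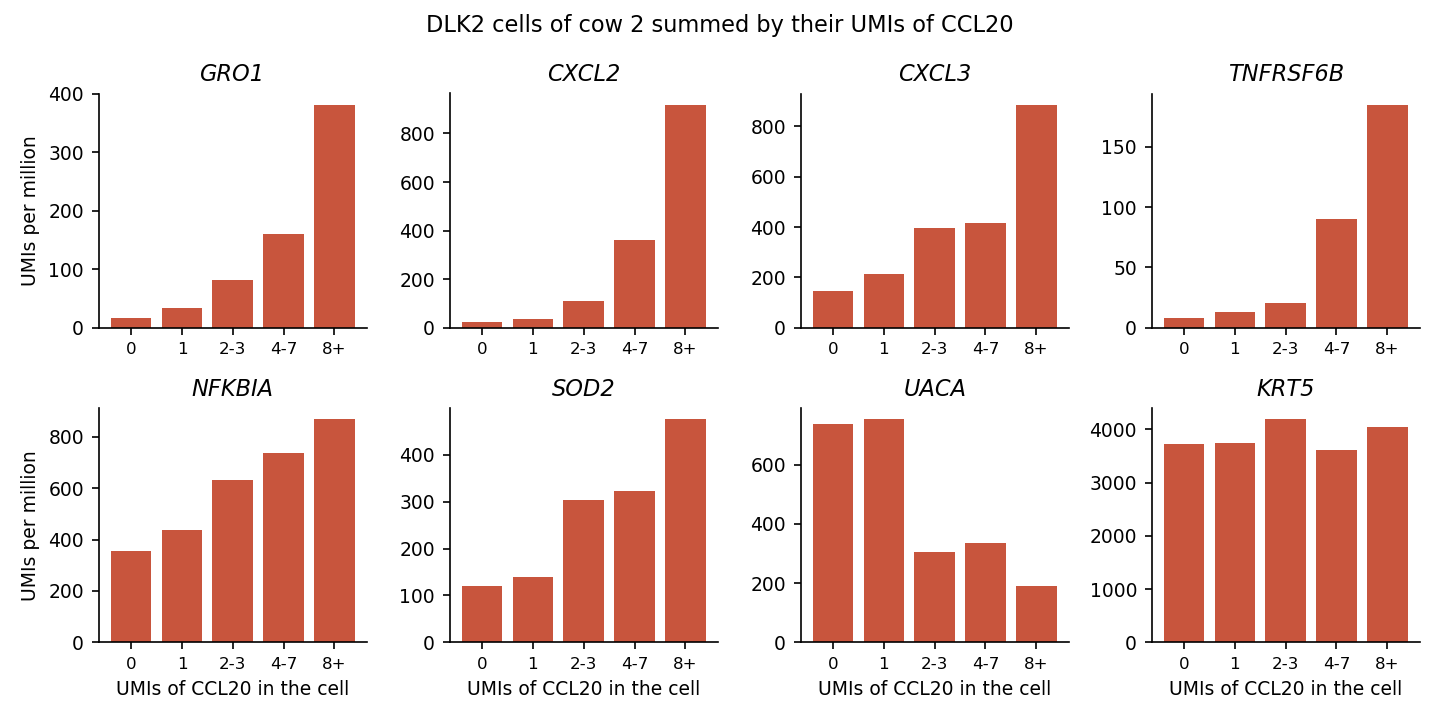
Summed level in CPM in DLK2 cells of cow 2, summed by the UMIs of CCL20 in the cell (0, 1, 2 to 3, 4 to 7, 8 or more), each panel with its own linear axis from 0. GRO1 goes from 17.1 to 381 and CXCL2 from 21.9 to 919, UACA goes from 736 to 189, and KRT5 stays between 3615 and 4189.

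Single cells differed widely within the members. Thinned to 5000 UMIs each, with 1 shallower cell left out, 38.0% of the members of cow 2 had none of GRO1, CXCL2, CXCL3 and TNFRSF6B and 8.33% had all 4. In the DLK2 cells of cow 2 with no CCL20 these shares were 73.3% and 0.236%. Before thinning they were 25.4% and 14.0% in the members and 63.1% and 0.231% in the comparison cells. For GRO1 alone, 31.8% of the thinned members of cow 2 had a UMI (25.3% to 38.9%, exact 95% interval), against 3.96% of DLK2 cells with no CCL20 and 4.76% of cells with neither gene. The median depths of those 3 groups were 14626, 10694.5 and 12929 UMIs per cell before thinning. In CCL20 cells with no DLK2 of cow 2, at a median of 18020 UMIs, 22.6% of the thinned cells had a UMI of GRO1. Of those thinned cells, 57.0% had none of the 4 genes and 2.26% had all 4. All 4 genes were called higher in the members, so these shares are a description.

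Whether the genes that came with CCL20 depended on DLK2 was asked with 240 cells that held at least 2 UMIs of CCL20 and no UMI of DLK2, of which 8, 223 and 9 came from cows 1 to 3, and 12500 cells with neither. The difference with CCL20 depended on DLK2 at an adjusted p below 0.05 in 1 gene, PTX3, of 10434 tested with edgeR, or 0.00958%, and in 392 at an unadjusted p below 0.05. DESeq2 called none (90 unadjusted). The 101 genes higher in the members were, in cow 2, each higher with CCL20 in the cells with no UMI of DLK2 also, against 52.3% of all genes tested, and both comparisons come from the same library. In cow 2, 87 of the 101 had more CPM in the members than in the CCL20 cells with no DLK2, against 51.0% of all genes tested, but the members' own values also chose these genes. For CXCL2 the cells with CCL20 and no DLK2 had 693, 137 and 311 CPM, and those with neither had 2.44, 13.7 and 1.84 CPM. The interaction of CXCL2 was 0.22 ± 0.48, that of GRO1 -0.02 and that of TNFRSF6B 0.09, none of which passed.

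Set directly against those CCL20 cells with no DLK2, the members had 54 genes higher (0.518%) and 102 lower (0.978%), with a median log2 fold change of 0.01. After thinning to 5000 UMIs the counts were 11 and 36. The CCL20 cells with no DLK2 had median depths of 16077, 18020 and 11277 UMIs against 12095, 14626 and 11841 in the members. Their median mitochondrial shares were 20.3%, 11.6% and 14.8% against 10.6%, 10.6% and 14.3%. Notch genes were higher in part, with 3 higher and 1 lower of 13 tested and a median of 0.22. DLL1, a Notch ligand, had 49.5, 55.1 and 0 CPM in the members against 8.34, 18.6 and 0 CPM, a log2 fold change of 1.63 ± 0.29 (adjusted p = 6.43e-05, edgeR). JAG2, another ligand, had 109, 103 and 127 CPM against 75.1, 55.9 and 56.5 CPM, a log2 fold change of 0.84 ± 0.24. LFNG, which modifies Notch, was also higher, and the target gene HES2 was lower. DLL1 and JAG2 differed with DLK2 in the same direction where CCL20 was absent, as DLK2 cells with no CCL20 had 74.1, 104 and 64.3 CPM of DLL1 and 181, 130 and 112 CPM of JAG2, against 31.9, 45.3 and 30.3 CPM of DLL1 and 135, 92.2 and 82.7 CPM of JAG2 in cells with neither. That difference was not tested. SLC4A7 was higher by 1.18 on the log2 scale, and its level in CCL20 cells with no DLK2 was 33.4, 24.4 and 18.8 CPM.

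Some genes of differentiation and division were lower in the members than in CCL20 cells with no DLK2, though most of both lists did not pass. The counts below stand beside 0.518% higher and 0.978% lower over all genes tested in this comparison. Of 11 tested genes of terminal differentiation, 4 were lower and none higher, with a median of -1.11, and these were KRT6A, TGM3, OVOL1 and ZNF750. KRT6A, a keratin of activated and differentiating layers, had 69.2, 270.1 and 1309 CPM in the members against 234, 599 and 1968 CPM, lower in each cow with a log2 fold change of -1.21 ± 0.24. Of 15 cell cycle genes, MKI67, TOP2A, CCNA2 and RRM2 were lower and none higher, with a median of -0.98. Of 30 tested target genes of NF-kB, SOD2, BIRC3 and LCN2 were higher and PTX3 lower, with a median of 0.38. BIRC3 was higher in cow 2 alone, at 39.6, 62.6 and 0 CPM in the members against 58.4, 27.1 and 18.8 CPM. S100A8 was lower in each cow (adjusted p = 0.00169, edgeR), at 613, 543 and 1225 CPM against 2837, 767 and 1488 CPM.

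BPIFA2C, a protein of the BPI family found in cattle, had 29.7, 4.24 and 0 CPM in the members against 317, 73.8 and 56.5 CPM, and cells with neither gene had 339, 86.8 and 87.6 CPM. WFDC18, PCLAF and RRM2 were also lower, with log2 fold changes of -3.15, -2.82 and -2.97. Against DLK2 cells with no CCL20, WFDC18 was called higher (1.47 ± 0.35), with UMIs in the members of cow 2 only. CHI3L1, a chitinase-like glycoprotein, had 692, 28.7 and 0 CPM in the members against 0, 1.47 and 0 CPM, and KRT18, a keratin of simple epithelia, had 356, 25.8 and 0 CPM against 8.34, 8.55 and 0 CPM. A single cell of cow 1 held 91.4% of that cow's UMIs of CHI3L1 and 88.9% of those of KRT18. After thinning to 5000 UMIs the log2 fold changes turned to -0.0696 for CHI3L1 and -0.0918 for M-SAA3. CREB3L1, M-SAA3 and SAA3 were higher, with log2 fold changes of 1.87, 2.14 and 2.39, the serum amyloid genes with 0 UMIs in the members of cow 3. CDKN1C, which stops the cell cycle and was listed as a gene of another DLK2 subset, had 168, 25.4 and 169 CPM against 0, 10.7 and 37.7 CPM (1.67, adjusted p = 0.00184, edgeR), but it was not called between the members and other DLK2 cells. A single cell held 94.1% of the UMIs of CDKN1C in the members of cow 1, and its 4 UMIs in cow 3 came from 1 cell.

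**Figure D4:**
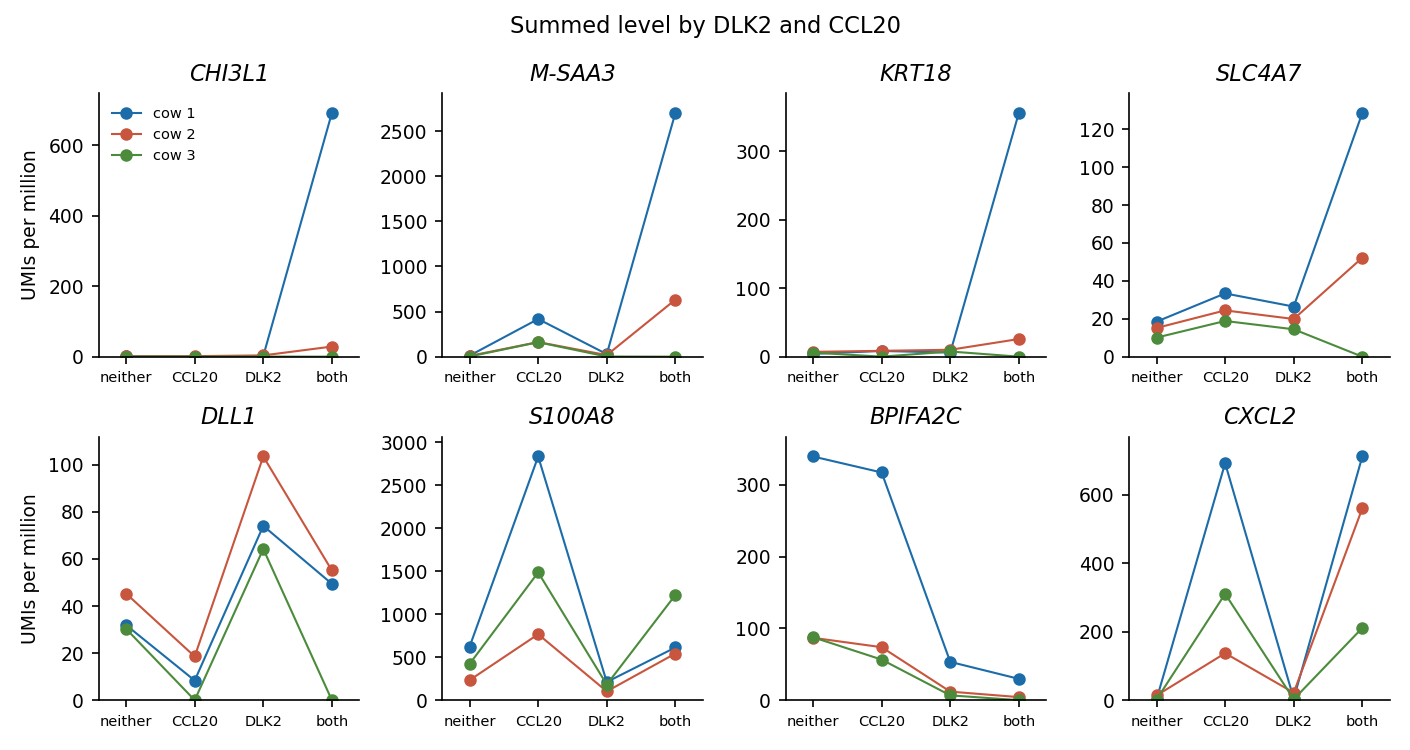
Summed level in CPM in cells with neither gene, with CCL20 and no UMI of DLK2, with DLK2 and no CCL20, and with both (the members), 1 line per cow, each panel with its own linear axis from 0. CXCL2 is high in both groups with CCL20 and BPIFA2C is low in both groups with DLK2, while CHI3L1, M-SAA3 and KRT18 of the members are dominated by cow 1.

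Markers of other cell types were at or near 0 in the members, apart from CD14 and CD68 of the leukocyte list. PTPRC, found on all leukocytes, had 0 UMIs, as had 10 of the 15 leukocyte markers in the matrix. The summed level of the leukocyte list was nonetheless 84.5 to 89.0 CPM in the members and 17.1 to 38.4 CPM in DLK2 cells with no CCL20. CD14, a receptor of bacterial lipopolysaccharide that some epithelia also make, carried most of it, with 79.1, 74.7 and 84.5 CPM against 32.1, 31.1 and 11.6 CPM (1.26 ± 0.30, adjusted p = 0.00411, edgeR). CD68, a lysosomal protein of macrophages, had 9.89, 8.48 and 0 CPM against 3.55, 4.20 and 2.78 CPM. The 5 fibroblast markers were at 0, and 4 of 5 endothelial markers were at 0, the exception being VWF with 4 UMIs. Smooth muscle and melanocyte markers had 5 UMIs each in all members together.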

How the data were processed

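UMI counts per gene and cell, whole numbers with no normalization, were deposited by the authors, who made them with Cell Ranger 3.1.0 on assembly ARS-UCD1.2 from Chromium Single Cell 3' v3 libraries, filtered cells on genes, UMIs and mitochondrial share, marked doublets with DoubletFinder and removed other cell types by their markers. No further doublet caller was run. The authors also deposited natural log values of the same cells, ln(1 + UMIs scaled to 10000 per cell), whose table gave the gene names (19533) by row order. The counts matched that formula within 1e-06. Barcode suffixes 1 to 3 were read as cows 1 to 3.

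Counts were summed per cow and group of cells, which gave 6 sums for members against DLK2 cells with no CCL20 and 12 for the interaction. edgeR 4.0.16 in R 4.3.3 was run with TMM scaling, filterByExpr and quasi-likelihood tests. Both sums of a cow come from the same animal, so the cow was the block. DLK2 and CCL20, which the rule uses, were left out of the calls. p-values draw on a spread estimated over 3 cows and shared across genes, so they need not follow the spread of 1 gene. CHI3L1 was called higher than in DLK2 cells with no CCL20 at an edgeR adjusted p of 8.75e-57. Yet its members had 692, 28.7 and 0 CPM against 1.97, 3.61 and 0.235 CPM, so cow 3 was not higher. Most UMIs of the members came from cow 2, and cows 1 and 3 gave 7 and 2 cells. A small p-value is thus no measure of agreement among 3 animals. The SE of a log2 fold change was its size divided by the square root of the edgeR F statistic. It is thus tied to the p-value and is no spread over the cows. TMM factors were 1.10, 0.786 and 1.73 for the members and 0.949, 0.783 and 0.896 for the comparison, so a log2 fold change can differ in sign from the CPM, as for JUN and KRT14. Other genes were read in the same cells as CCL20, and the filter kept genes partly by their counts in the members.

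Scripts were tested on simulated data. There the earlier form of edgeR's quasi-likelihood dispersion made more false calls than the bias-adjusted form. The latter was therefore used, a choice made after calls of the earlier form on the real data had been seen. Members and lists were chosen with earlier results of these data known.

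Genes named singly were DLK2, CCL20, GRO1, TNFRSF6B and SLC4A7; the 15 largest higher and 10 largest lower called genes at a mean of 20 CPM with the same direction in each cow; called genes of the lists and up to 4 abundant members of each; up to 5 called interactions per direction; and the 5 largest differences per direction against CCL20 cells with no DLK2. Exceptions are marked, and CCR6, FASLG, IVL, LOR and PTPRC were named for their known roles. SAA3, M-SAA3, CHI3L1 and KRT18 are named under the last. Alternatives were DESeq2 1.42.0, RLE scaling, no filter, no block, each cow left out, other limits of CCL20 and DLK2, depth matching, thinning to 5000 UMIs with shallower cells left out, and no cells over 25000 UMIs or 20% mitochondrial counts. Sums, shares and plots were made in Python 3.11.15 (pandas 2.3.3, matplotlib 3.10.9, numpy 2.4.6, scipy 1.17.1). No sequences are shown, and no coordinates are given because the gene table at hand is of assembly ARS-UCD2.0.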

Additional observations from a re-analysis of the deposited data

Results flagged for a closer look

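PTX3, which encodes a secreted pattern recognition protein, was the 1 gene whose difference with CCL20 depended on the presence of DLK2, by an interaction of -3.17 ± 0.58 on the log2 scale (edgeR quasi-likelihood test, adjusted p = 0.00428). In cow 2 it stood at 2.61 CPM in the members, 4.42 CPM in DLK2 cells with no CCL20, 11.2 CPM in CCL20 cells with no DLK2 and 2.24 CPM in cells with neither. The members of cows 1 and 3 had 0 UMIs of it and those of cow 2 had 8, so the value rests on cow 2.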

How the results depend on the processing

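Counts of genes higher and lower in the members than in DLK2 cells with no CCL20 (101 and 34) moved with the processing. The model without the block for the cow gave 21 and 0, DESeq2 23 and 2, DLK2 from 2 UMIs 0 and 0, comparison cells matched on depth 57 and 8, and cells thinned to 5000 UMIs 31 and 1. The earlier quasi-likelihood form gave 99 higher, 74 of them among the 101, and 22 lower, 16 of them among the 34. The bias-adjusted form was made the main one after calls of the earlier form had been seen. Each cow left out in turn gave 0 to 5 higher and 0 lower. At an unadjusted p below 0.05 edgeR had 426 higher in the full data, 399 with DLK2 from 2 UMIs, where cow 3 drops out, and 49 without cow 2. RLE scaling (106 and 49), no filter (109 and 24), CCL20 from 1 UMI (149 and 25) or from 3 UMIs (113 and 38), no cells over 25000 UMIs (101 and 33) and none over 20% mitochondrial (97 and 29) stayed within 1.5 times in number. The lower genes changed more than their number, since of the 34 only 11 were called with CCL20 from 1 UMI, 21 with no cells over 25000 UMIs, 22 with no filter, 23 with none over 20% mitochondrial, 27 with CCL20 from 3 UMIs and 34 with RLE scaling. Of the 101 higher these settings called 89 to 100.

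The 1 interaction became 0 with no block, with DESeq2 and with no filter, 12 with the earlier form, 4 after thinning and 0 to 4 with a cow left out. Against CCL20 cells with no DLK2, the 54 genes higher became 0 with no block, 19 with DESeq2, 31 with no filter, 103 with the earlier form, 11 after thinning and 1 to 80 with a cow left out. The 102 lower became 0 with no block (169 unadjusted), 45 with DESeq2, 45 with no filter, 36 after thinning and 6 to 122 with a cow left out. The mean share of DLK2 cells with CCL20 was 0.284% to 2.78% with a cow left out, the lowest without cow 2.

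Of 48 genes named with a value and called between the members and DLK2 cells with no CCL20, 48 kept their call under RLE scaling, 18 with DESeq2, 16 with no block, 4 without cow 1 and none without cow 2 or cow 3, where edgeR called no gene in that comparison. Without cow 2 the median over all genes was -0.65. With 1 cow left out of that comparison the log2 fold change of TNFRSF21 lay between -0.00730 and 1.82 and that of WFDC18 between -7.75 and 1.56, and against CCL20 cells with no DLK2 the log2 fold change after thinning turned to -0.0918 for M-SAA3 and -0.0696 for CHI3L1. The cause of each was not tested. Depth limits the members of cows 1 and 3, where 1 UMI is worth 9.89 and 42.2 CPM.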
